A study of Mus musculus with 4 samples.

Results

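Glucose enters a T cell through facilitative transporters and is split to pyruvate by the glycolytic enzymes. The 10 genes described here are 2 glucose transporters (Slc2a1 and Slc2a3), 7 enzymes of glycolysis and lactate formation (Hk1, Hk2, Pfkp, Aldoa, Gapdh, Pkm and Ldha) and the hypoxia-inducible transcription factor subunit Hif1a. They were taken by symbol from a deposited table of 16230 genes, and all 10 were found in it. Resting T cells burn little glucose, and a T cell that has met its antigen takes up more and turns much of it into lactate even where oxygen is plentiful. Hexokinase traps glucose in the cell, phosphofructokinase commits it to the pathway, and lactate dehydrogenase regenerates the NAD that the pathway uses. HIF-1α, the product of Hif1a, is degraded where oxygen is plentiful and otherwise binds DNA next to many genes of this pathway. Its amount is set largely by that degradation, which transcript levels do not show.

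RNA came from CD4 T cells that had been placed as naive cells into Rag-/- mice. These hosts have no T or B cells of their own and keep their NK, myeloid and red cells. The CD4 T cells were recovered by cell sorting from the spleen after 8 weeks, when colitis had developed. Control donors carried loxP-flanked alleles of the estrogen receptor α gene Esr1 (ERafl/fl, 2 libraries). The other donors carried the same flanked alleles and a Cre recombinase expressed under Cd4 control (CD4creERafl/fl, 2 libraries), which removes the flanked part in T cells of the donor but not in cells of the host. The sources used here give neither the age of the mice nor whether each library came from a mouse of its own, so the spread on which the p-values rest may be technical. Esr1 itself was near the floor: its level was 0.23 FPKM in control 1 and 1.96 FPKM in CD4creERafl/fl library 2, and the other 2 libraries list it at 0. A level for the whole gene does not separate the flanked part, so these values do not check the genotype, and the CD4creERafl/fl libraries are named here by their label, as ERα-deficient-labelled.

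The values are FPKM, fragment counts scaled for transcript length and library size, so that levels can be compared between genes of different length. Depth was low. Judged from the steps between low values, controls 1 and 2 held about 692000 and 660000 fragments, against 499000 and 553000 in ERα-deficient-labelled libraries 1 and 2. The defining transcripts of T cells were present in each library, but at different levels: the summed FPKM of 15 T cell markers was 1886 and 1505 in the controls and 442.4 and 359.1 in the ERα-deficient-labelled libraries. Transcripts of macrophages and monocytes went the other way, with a sum over 15 markers of 110.2 and 513.7 FPKM in the controls and 2797 and 3307 in the other group. In such bulk libraries, fewer cells of a type and less RNA per cell cannot be told apart.

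On FPKM as deposited the 10 transcripts were mostly lower in the ERα-deficient-labelled libraries, none passed the test, and on a scale set by the T cell markers, which divides all genes of a library by 1 factor, those with lower means had higher ones. That scale shifted the all-gene median (log2) from -0.07 to 1.69 and gave 93.5% of tested genes a higher mean, so the direction on it says nothing particular of the 10 genes. 9 of the 10 had a lower mean and 1, Hk2, a higher mean, with a median log2 fold change of -0.68 beside -0.07 over all 12896 tested genes. For 7 of the 10 both ERα-deficient-labelled libraries lay below both controls, where 25.7% of all tested genes did so, and for Hk2 they lay above, as for 23.2% of all tested genes. In limma, with Benjamini-Hochberg adjustment over all tested genes, 0 of the 10 were called higher and 0 lower, where 0.0155% and 0.0388% of all tested genes were (0.0543% in either direction), and the adjusted p ran from 0.325 for Ldha to 0.803 for Aldoa. At an unadjusted p under 0.05 the count was also 0 of 10, where 15.9% of tested genes passed.

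**Figure D1:**
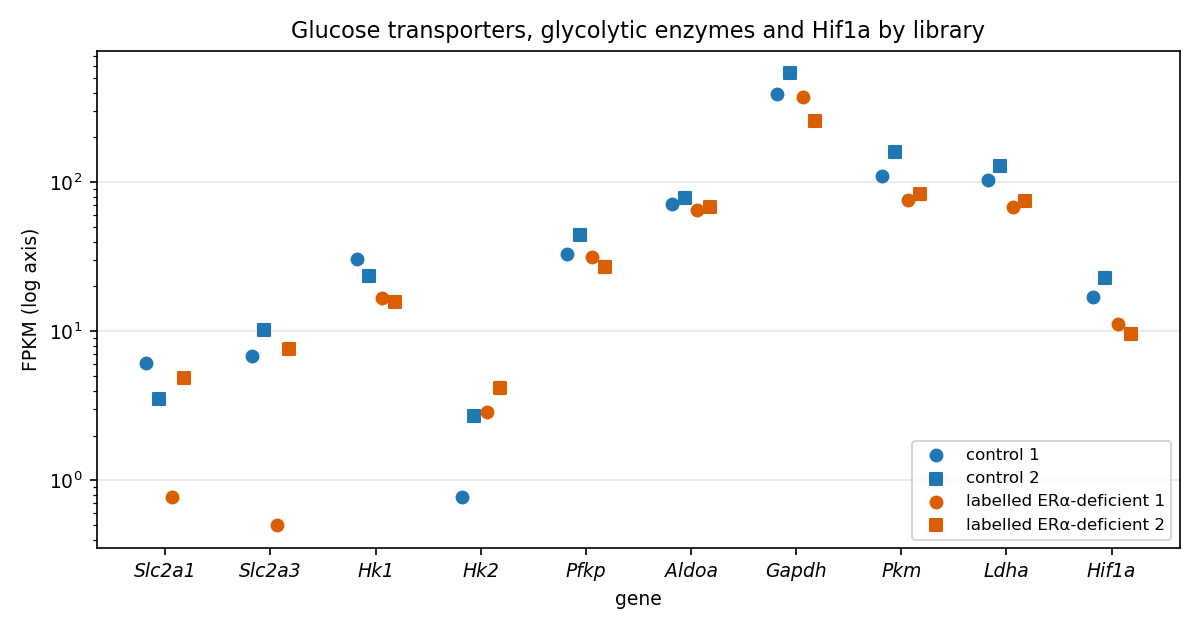
FPKM of each of the 10 genes in the 4 libraries, on a log axis, with 1 point per library (blue for controls, orange for the ERα-deficient-labelled libraries). Gapdh is the highest in each library, and the lowest point is Slc2a3 in the first ERα-deficient-labelled library, at 0.5 FPKM, followed by Slc2a1 there and Hk2 in control 1, both at 0.77 FPKM.

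The order of the levels hardly differed between libraries. Gapdh was the highest in each, followed by Pkm, Ldha, Aldoa, Pfkp, Hk1 and Hif1a, in that order in all 4 libraries. Among neighbours in this order, only Pkm and Ldha had control ranges that overlapped, at 135 ± 34.8 and 116 ± 18.6 FPKM (SD, n = 2). The 3 lowest genes were Slc2a3, Slc2a1 and Hk2, in this order in 3 of the 4 libraries and in the reverse order in ERα-deficient-labelled library 1. Gapdh made up 46.6% to 57.8% of the summed FPKM of the 10 genes.

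The windows before the start sites of 4 of the genes are shown because HIF-1 is known to bind the core letters ACGTG, and these windows hold them. Each sequence is the 250 bases before a RefSeq start (GRCm38.p6), written 5′ to 3′ on the strand of the gene, with ACGTG or its reverse complement CACGT in capitals. CACGTG, the E-box that Myc family factors bind, holds the core on both strands.
Slc2a1 (chr4:119108495-119108744, plus strand): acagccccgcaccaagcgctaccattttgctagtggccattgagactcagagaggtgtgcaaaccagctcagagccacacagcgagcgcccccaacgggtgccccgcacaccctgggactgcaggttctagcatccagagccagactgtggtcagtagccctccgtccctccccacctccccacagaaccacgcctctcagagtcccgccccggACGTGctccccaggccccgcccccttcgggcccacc
Hk2 (chr6:82774455-82774704, minus strand): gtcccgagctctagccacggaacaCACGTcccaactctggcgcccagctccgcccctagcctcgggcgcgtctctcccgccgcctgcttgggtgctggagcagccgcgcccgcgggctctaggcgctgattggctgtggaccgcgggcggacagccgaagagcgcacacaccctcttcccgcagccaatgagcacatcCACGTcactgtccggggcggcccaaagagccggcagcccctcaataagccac
Ldha (chr7:46845554-46845803, plus strand): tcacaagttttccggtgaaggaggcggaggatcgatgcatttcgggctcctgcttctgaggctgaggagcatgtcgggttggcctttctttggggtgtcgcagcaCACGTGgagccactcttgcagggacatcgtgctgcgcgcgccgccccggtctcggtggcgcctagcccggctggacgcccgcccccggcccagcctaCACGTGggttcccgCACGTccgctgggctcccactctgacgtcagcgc
Hif1a (chr12:73907617-73907866, plus strand): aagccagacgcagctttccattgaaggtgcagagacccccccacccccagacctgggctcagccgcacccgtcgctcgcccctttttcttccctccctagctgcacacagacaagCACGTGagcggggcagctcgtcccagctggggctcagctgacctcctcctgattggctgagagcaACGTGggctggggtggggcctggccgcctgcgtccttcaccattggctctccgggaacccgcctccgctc

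The printed window of Ldha held 3 such stretches, those of Hk2 and Hif1a 2 each and that of Slc2a1 1. A second window of Ldha, not printed, held 0, as did the windows of Hk1, Pfkp and Gapdh. The printed windows were picked among those that held the core, and whether it goes with the direction of a mean was not tested. RefSeq windows were found for 9 of the 10 genes, all but Slc2a3. Of the 9, 6 had ACGTG on either strand in at least 1 window, where 18.5% of 27025 genes did. Counted by window, 7 of 14 held it, where 16.6% of all 32851 windows did. Overlapping windows of Aldoa (126799179 to 126799428 and 126799255 to 126799504) held the same site and were both counted. The background was not matched for base composition or level. With GCGTG, the other form of the core, counted too, it was 9 of 9 genes, where 41.5% of all genes had either form. A match is a description of the letters and not of binding, which was not measured here.

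The 2 glucose transporters were low, and the first ERα-deficient-labelled library stood below the other 3. Slc2a1 (NCBI gene 20525; GRCm38 chromosome 4, 119108745 to 119137330) encodes GLUT1, the transporter that activated T cells bring to their surface. It had 6.11 and 3.50 FPKM in controls 1 and 2 and 0.77 and 4.86 FPKM in the ERα-deficient-labelled libraries 1 and 2. The second of these lay between the controls, so the groups overlapped. On the 1 transcript the table lists, the values correspond to about 14, 8, 1 and 9 fragments, and the exact 95% Poisson interval for the lowest, 0.02 to 4.29 FPKM, overlaps those of the other 3. The log2 fold change was -0.81 ± 0.72 (SE, adjusted p = 0.611 in limma), and without the first ERα-deficient-labelled library it was 0.051.

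Slc2a3 (NCBI gene 20527; chromosome 6, 122727809 to 122802363) encodes GLUT3, a transporter of high affinity also found in lymphocytes. It had 6.80 and 10.1 FPKM in the controls and 0.5 and 7.61 FPKM in the ERα-deficient-labelled libraries, about 18, 26, 1 and 17 fragments. Here the counting interval of the lowest value, 0.01 to 2.79 FPKM, did not reach those of the other 3, whose lower bounds were 4.03, 6.62 and 4.43 FPKM. The second ERα-deficient-labelled library again lay within the range of the controls. The log2 fold change of -1.38 ± 0.88 (SE, adjusted p = 0.496 in limma) was -0.11 without the first ERα-deficient-labelled library and -2.64 without the second. Both transporters were thus low in the same library and within the control range in its companion.

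The balance between the transporters varied as much within the groups as between them. Slc2a3 made up 52.7% and 74.3% of their summed FPKM in the controls and 39.4% and 61.0% in the ERα-deficient-labelled libraries. On log2(FPKM + 1), the excess of Slc2a3 over Slc2a1 had a mean of 0.72 ± 0.83 in controls against 0.16 ± 0.56 in the other group (SD, n = 2), and the groups overlapped. An exact two-sided permutation test of this difference gave p = 0.67, where 2 libraries against 2 allow no p below 0.33. The difference between groups, -0.56, turned to 0.025 without control 2.

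The hexokinases differed in direction. Hk1 (NCBI gene 15275; chromosome 10, 62268855 to 62379920), the widely expressed hexokinase that binds to mitochondria, had 30.5 and 23.6 FPKM in controls and 16.7 and 15.8 FPKM in the ERα-deficient-labelled libraries. The lowest control lay 6.98 FPKM above the highest library of the other group. Its log2 fold change was -0.69 ± 0.34 (SE, adjusted p = 0.39 in limma). Hk1os, which overlaps 157 bases of its exons on the opposite strand, was above 0 in the first ERα-deficient-labelled library (3.77 FPKM) and listed at 0 in the other 3.

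Hk2 (NCBI gene 15277; chromosome 6, 82725025 to 82774454), the inducible hexokinase of activated lymphocytes and muscle, had 0.77 and 2.69 FPKM in controls and 2.86 and 4.17 FPKM in the ERα-deficient-labelled libraries. These are about 3, 10, 8 and 13 fragments, and the gap of 0.17 FPKM between the groups is less than the worth of 3 fragments (0.8 to 1.1 FPKM). The counting intervals of the 4 libraries overlapped one another. The log2 fold change was 0.81 ± 0.60 (SE, adjusted p = 0.555 in limma), with a range of 0.28 to 1.34 when single libraries were left out, the lowest without control 1 and the highest without control 2.

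Set against each other, Hk2 took a larger share in the ERα-deficient-labelled libraries. Hk2 made up 2.5% and 10.2% of the summed Hk1 and Hk2 FPKM in controls against 14.6% and 20.9% in the other group, without overlap. On log2(FPKM + 1), Hk2 minus Hk1 had a mean of -3.45 ± 0.998 in controls against -1.95 ± 0.35 in the other group (SD, n = 2), a difference of 1.497, which was 0.79 without control 1. The exact two-sided permutation p was 0.33, the smallest that 2 against 2 libraries can give. 2 pairs were compared in this way, and with so few libraries no adjustment could bring either under the threshold.

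Hk3, the hexokinase of myeloid cells, was named after its values were seen. It had 0.49 and 9.65 FPKM in controls and 11.7 and 15.9 FPKM with ERα-deficient labels (log2 fold change 1.88 with an SE of 0.94, limma adjusted p = 0.405). The sum of Hk1, Hk2 and Hk3 was 31.7 and 35.99 FPKM in controls against 31.2 and 35.9 FPKM in the other group, so that the sums overlapped. Within it, the share of Hk1 was 96.0% and 65.7% in controls and 53.4% and 44.0% in the ERα-deficient-labelled libraries. The share of Hk3 followed the order of the macrophage and monocyte sums given above over the 4 libraries, at 1.5%, 26.8%, 37.5% and 44.4%, and the part of these cells in the result was not tested.

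**Figure D2:**
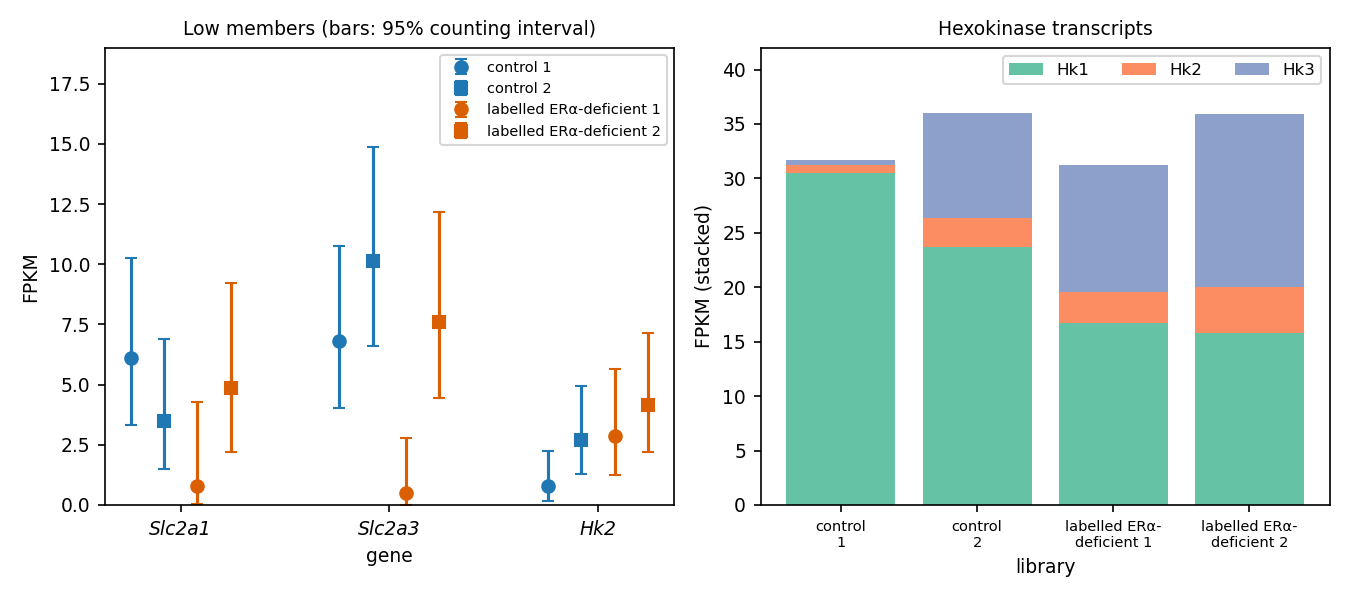
Left, FPKM of Slc2a1, Slc2a3 and Hk2 in each library, with exact 95% Poisson intervals for counting error, where the first ERα-deficient-labelled library has the lowest value of both transporters. Right, stacked FPKM of Hk1, Hk2 and Hk3 in each library, where the stack reaches 31.2 to 35.99 FPKM while the part of Hk1 goes from 30.5 in control 1 to 15.8 in the second ERα-deficient-labelled library.

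Of the 10 genes, Pfkp and Aldoa had the smallest log2 fold changes. Pfkp (NCBI gene 56421; chromosome 13, 6579874 to 6649060), the platelet-type phosphofructokinase that lymphocytes also use, had 32.8 and 44.4 FPKM in controls and 31.4 and 26.9 FPKM in the ERα-deficient-labelled libraries. The groups lay 1.38 FPKM apart, less than the spread within either, and the log2 fold change was -0.38 ± 0.33 (SE, adjusted p = 0.601 in limma). It was -0.17 without control 2 and -0.59 without control 1, and the groups overlapped under median-ratio scaling. Pitrm1 shares 748 bases of exon with it on the opposite strand and had 6.71 to 8.0 FPKM in the 4 libraries. The sources used here do not say whether counting used strand, and fragments of such overlaps cannot be told apart. Aldoa (NCBI gene 11674; chromosome 7, 126795234 to 126800994), the aldolase that cleaves fructose bisphosphate, had 71.3 and 78.3 FPKM in controls against 65.1 and 68.2 FPKM in the other group. Its mean there was 89.2% of that in controls (log2 fold change -0.16 with an SE of 0.27, limma adjusted p = 0.803).

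Gapdh (NCBI gene 14433; chromosome 6, 125161852 to 125166467), the dehydrogenase often used as a loading control, had 389 and 538 FPKM in controls and 374 and 258 FPKM in the ERα-deficient-labelled libraries. The first of these lay 14.88 FPKM below control 1, a smaller gap than the differences between libraries of the same group. The log2 fold change was -0.56 ± 0.31 (SE, adjusted p = 0.446 in limma). It was -0.32 without control 2 and -0.29 without the second ERα-deficient-labelled library, and the groups overlapped under median-ratio scaling. Its transcript shares at least 100 bases at 95% identity or more with 81 other annotated genes, 2 of them in the table. Gm12070, a near-identical copy (99.9% identity over 1002 bases), had 2.23 and 12.6 FPKM in controls against 20.02 and 50.2 FPKM in the other group. Estimated assignment could move fragments between the gene and its copy, and their sum was 391 and 551 FPKM in controls and 394 and 308 FPKM in the ERα-deficient-labelled libraries. On this sum the groups overlapped, with a log2 fold change of -0.41, so the separation of Gapdh between the groups is uncertain.

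Pyruvate kinase and lactate dehydrogenase, the last steps, had the lowest p-values of the 7 enzymes among the 10 genes. Pkm (NCBI gene 18746; chromosome 9, 59656576 to 59679372), whose splice forms PKM1 and PKM2 a gene-level value does not separate, had 110 and 159 FPKM in controls. It had 76.2 and 83.9 FPKM in the ERα-deficient-labelled libraries, 59.4% of the control mean. The groups lay 26.18 FPKM apart, and the log2 fold change was -0.72 ± 0.31 (SE, unadjusted p = 0.0589, adjusted p = 0.333 in limma). It was -0.46 without control 2. Ldha (NCBI gene 16828; chromosome 7, 46842274 to 46855627), which turns pyruvate into lactate and whose printed window held the most core letters of the 4, had 103 and 129 FPKM in controls against 68.8 and 74.8 FPKM in the other group, 61.8% of the control mean. The gap was 28.14 FPKM and the log2 fold change -0.68 ± 0.28 (SE, unadjusted p = 0.0552, adjusted p = 0.325 in limma). Ldha shares sequence with 6 other annotated genes and Pkm with 2, none of them in the table.

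Hif1a (NCBI gene 15251; chromosome 12, 73901324 to 73947554) had 17.0 and 22.9 FPKM in controls and 11.2 and 9.61 FPKM in the ERα-deficient-labelled libraries. Both libraries of the second group lay below both controls by at least 5.8 FPKM, and their mean was 52.2% of that in controls. The log2 fold change of -0.87 ± 0.37 (SE, unadjusted p = 0.0589, adjusted p = 0.333 in limma) stayed between -1.07 and -0.66 when single libraries were left out. Among 7500 other tested genes with a mean of at least 5 FPKM, the profiles nearest to Hif1a over the 4 libraries were those of Hdac1, Fibp and Atxn10, at root mean square distances of 0.0488, 0.0513 and 0.0545 on the centred log2 scale. Hdac1 had 48.1 and 59.6 FPKM in controls against 32.5 and 26.4 FPKM in the other group. Of the other 9 genes, Pkm and Ldha were nearest to Hif1a, at distances of 0.145 and 0.149, and Slc2a3 was the farthest, at 0.996. With 4 libraries such distances describe shared levels and no more.

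Among other enzymes of glycolysis more had a higher mean than a lower one, without a shared direction. For these and the lists that follow, directions are those of FPKM as deposited. The limma counts of each list stand beside 0.0543% of all tested genes called in either direction. An unadjusted p under 0.05 in limma was seen for 15.9% of all tested genes. Scaled to T cell markers, each of the 8 lists had a median above 0, as had all tested genes, from 1.31 for the partners and regulators of HIF-1α to 2.61 for the regulators of phosphofructokinase. Of 15 tested further enzymes of glycolysis, 11 had a higher mean and 4 a lower mean, with a median log2 fold change of 0.22. Without overlap 4 lay higher and 3 lower, where 23.2% and 25.7% of all tested genes did. Gpi1 and Tpi1, named after their values were seen, counted as higher with log2 fold changes of 0.016 and 0.0028. In limma 0 were called in either direction, and 1 had an unadjusted p under 0.05. Eno3, the muscle enolase, had 2.90 and 3.04 FPKM in controls and 12.1 and 6.05 FPKM with ERα-deficient labels (log2 fold change 1.28 with an SE of 0.49, limma adjusted p = 0.306). Adpgk, a glucokinase that uses ADP, had 9.16 and 13.2 against 25.5 and 17.9 FPKM. Pfkl, the liver-type phosphofructokinase, had 8.11 and 13.0 against 3.86 and 5.45 FPKM, lower like Pfkp.

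The steps between those of the 10 genes were looked at after the values were seen. Pgk1, the kinase after Gapdh, had 32.8 and 62.3 FPKM in controls and 17.4 and 28.3 FPKM with ERα-deficient labels (log2 fold change -0.99 with an SE of 0.45, limma adjusted p = 0.359), without overlap. The groups overlapped for Gpi1 (74.6 and 74.9 against 65.0 and 87.8 FPKM), which follows hexokinase, and for Tpi1 (15.3 and 39.7 against 17.6 and 34.9 FPKM), which follows aldolase. They also overlapped for Pgam1 (9.3 and 37.4 against 21.6 and 21.3 FPKM) and Eno1 (69.9 and 110.6 against 64.5 and 79.8 FPKM), the steps before pyruvate kinase. Lower FPKM without overlap were thus seen for Hk1, Pfkp, Aldoa, Gapdh, Pgk1, Pkm and Ldha, as for 25.7% of all tested genes. Hk2 and Hk3 lay higher without overlap, and the sum of Hk1, Hk2 and Hk3 overlapped. Under median-ratio scaling Pfkp and Gapdh overlapped, as did Gapdh when summed with Gm12070.

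Among the other glucose transporters, Slc5a2, the sodium-coupled transporter best known from kidney, made up most of the summed FPKM. It was named after its values were seen, and had 89.4 and 83.2 FPKM in controls against 135 and 73.0 FPKM in the other group, with overlap. Of 6 tested, 5 had a higher mean and 1 a lower mean (median log2 fold change 0.38), and 0 were called in limma or had an unadjusted p under 0.05. Slc2a6 had 2.01 and 3.52 FPKM in controls against 8.02 and 5.40 FPKM in the other group, Slc2a10 had 2.82 and 1.39 against 3.0 and 4.80, and Slc2a4, the insulin-regulated GLUT4, had 4.79 and 1.21 against 2.71 and 6.37. Among 4 tested regulators of phosphofructokinase, 3 had a higher and 1 a lower mean (median 0.75), 0 were called in limma and 1 had an unadjusted p under 0.05. That gene, Pfkfb4, makes fructose 2,6-bisphosphate, an activator of phosphofructokinase. It had 0.42 and 0.89 FPKM in controls and 4.70 and 9.50 FPKM with ERα-deficient labels (log2 fold change 2.24 with an SE of 0.57, limma adjusted p = 0.18). Pfkfb3 had 5.57 and 6.10 against 13.6 and 10.1 FPKM without overlap, and Pfkfb2 had 13.1 and 8.93 against 28.1 and 10.2 FPKM with overlap.

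Genes of the pentose phosphate pathway, the branch that yields NADPH and ribose, had higher means in 7 of 8 cases, with a median log2 fold change of 0.72. In limma 0 were called and 3 had an unadjusted p under 0.05, where 0.0543% and 15.9% of all tested genes did. Those 3 lay higher without overlap, which a low p favours. None of the other tested genes of the list were without overlap, where 23.2% of all tested genes lay higher and 25.7% lower in this way. Pgd, the phosphogluconate dehydrogenase, had 10.9 and 20.3 FPKM in controls and 44.0 and 45.9 FPKM with ERα-deficient labels (log2 fold change 1.53 with an SE of 0.40, limma adjusted p = 0.183). Tkt, transketolase, had 23.3 and 27.7 against 59.4 and 47.8 FPKM. Taldo1, transaldolase, had 30.7 and 70.4 against 106 and 142 FPKM. NADPH feeds the oxidase of phagocytes, and markers of macrophages, monocytes and neutrophils had higher means in the same libraries. Without overlap, 15 of 15 macrophage and monocyte markers and 6 of 11 neutrophil markers lay higher, where 23.2% of all tested genes did. In limma 0 of either list were called, where 0.0155% of all tested genes were called higher. An unadjusted p under 0.05 was seen for 15 of 15 and 5 of 11, where 15.9% of all tested genes had one. Their part in the values was not tested.

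Genes that carry pyruvate and lactate onward were divided. Of 17 tested, 7 had a higher and 10 a lower mean (median log2 fold change -0.11), with 0 called in limma and 0 at an unadjusted p under 0.05. Pdha1, a subunit of pyruvate dehydrogenase, had 34.8 and 37.0 FPKM in controls and 51.4 and 66.5 FPKM with ERα-deficient labels (log2 fold change 0.69 with an SE of 0.31, limma adjusted p = 0.35). Pdk4, a kinase that switches this enzyme off, had 6.06 and 0.54 FPKM in controls, 0.53 in the first ERα-deficient-labelled library, and was listed at 0 in the second. Bsg, the chaperone of lactate transporters, had 24.7 and 49.7 against 51.7 and 58.0 FPKM.

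Partners and regulators of HIF-1α mostly had lower means on FPKM as deposited, like Hif1a itself, while on the T cell marker scale the list's median of 1.31 and that of all tested genes, 1.69, were both above 0. Of 12 tested, 3 had a higher and 9 a lower mean (median log2 fold change -0.63), 5 lay lower and 1 higher without overlap (25.7% and 23.2% of all tested genes did), and 0 were called in limma, with 1 at an unadjusted p under 0.05. That gene, Egln1, encodes the prolyl hydroxylase that marks HIF-1α for degradation. It had 10.5 and 7.63 FPKM in controls and 2.81 and 3.54 FPKM with ERα-deficient labels (log2 fold change -1.26 with an SE of 0.44, limma adjusted p = 0.262). Its relative Egln2 had 7.43 and 8.5 against 2.82 and 5.07 FPKM, and Tceb1, which encodes elongin C of the ubiquitin ligase that binds HIF-1α, had 26.0 and 30.2 against 16.9 and 19.3 FPKM.

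Hypoxia-responsive genes outside glycolysis showed no shared direction. Of 16 tested, 9 had a higher and 7 a lower mean (median log2 fold change 0.03), with 0 called in limma and 3 at an unadjusted p under 0.05. Hmox1, heme oxygenase, which is also a macrophage marker, had 7.94 and 41.6 FPKM in controls and 399 and 453 FPKM in the ERα-deficient-labelled libraries. Bhlhe40, a transcription factor of activated T cells, went the other way, at 67.3 and 51.4 against 23.6 and 34.9 FPKM (log2 fold change -1.01 with an SE of 0.35, limma adjusted p = 0.263). Higd1a, a mitochondrial protein, had 6.91 and 7.25 FPKM in controls, was listed at 0 in the first ERα-deficient-labelled library and had 2.88 FPKM in the second.

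Of 15 tested genes that act upstream on glucose use, 9 had a higher and 6 a lower mean (median log2 fold change 0.02), with 0 called in limma and 0 at an unadjusted p under 0.05. Myc, a factor of the E-box shown in the windows of Ldha and Hif1a that drives glycolytic genes in activated T cells, had 10.2 and 7.52 FPKM in controls and 17.5 and 15.7 FPKM with ERα-deficient labels (log2 fold change 0.85 with an SE of 0.37, limma adjusted p = 0.346). Rheb, the activator of mTOR complex 1, had 19.8 and 12.4 against 30.9 and 25.2 FPKM. Mlx, a partner of glucose-sensing factors, had 13.0 and 14.8 against 9.21 and 6.88 FPKM. In each of these 3 the groups did not overlap, which their choice by smallest p favours. Of the 15 tested, 3 lay higher and 4 lower without overlap, where 23.2% and 25.7% of all tested genes did.

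**Figure D3:**
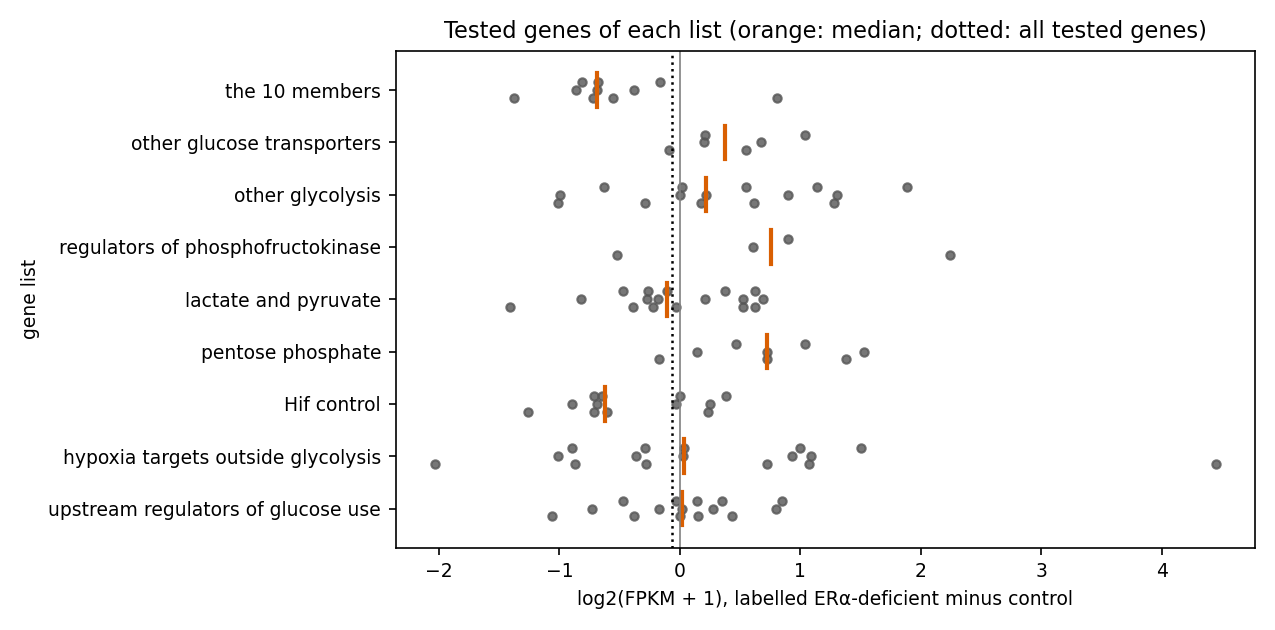
Log2 fold changes (labelled ERα-deficient minus control, on log2(FPKM + 1)) of the tested genes in each list, 1 point per gene, with the list median in orange and the median of all tested genes dotted. The 10 genes and the list of HIF control have medians of -0.68 and -0.63, and the pentose phosphate list and the regulators of phosphofructokinase have 0.72 and 0.75.

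How the glycolytic genes stood depended on what they were measured against. The sum of the 7 enzymes was 737 and 976 FPKM in controls and 635 and 532 FPKM in the ERα-deficient-labelled libraries, a smaller gap than that of the T cell marker sums given above. Of the 15 T cell markers, 15 lay lower in both ERα-deficient-labelled libraries than in either control, where 25.7% of all tested genes did. Their median log2 fold change was -2.55, and none was listed at 0. In limma 0 were called, where 0.0388% of all tested genes were called lower. At an unadjusted p under 0.05 in limma there were 14 of the 15, where 15.9% of all tested genes passed. The fold changes were uneven, from -3.19 to -0.78. Cd247 and Cd3d, the most abundant markers, had the smallest falls (-1.35 and -0.78), so the T cell marker scale depends on which markers are summed. When each library was divided by its T cell marker sum, the median log2 fold change of the 10 genes became 1.36, below the 1.69 of all tested genes. On that scale 8 of the 10 lay higher without overlap, as 79.7% of all tested genes did. In limma 7 of the 10 rose (Hk1, Hk2, Pfkp, Aldoa, Gapdh, Pkm and Ldha, adjusted p 0.0130 to 0.0404), where 55.5% of all tested genes did and 0.349% fell, and Slc2a1, Slc2a3 and Hif1a did not pass, with log2 fold changes of 0.73, 0.23 and 1.07 (adjusted p 0.484, 0.868 and 0.0764). On both scales the median of the 10 genes lay below that of all genes. Dividing each library by 1 factor nearly fixes that order in advance, so the T cell marker scale adds nothing to it. This scale shows how the transcripts stand relative to those of T cell genes, and it does not show in which cells they were made.

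**Figure D4:**
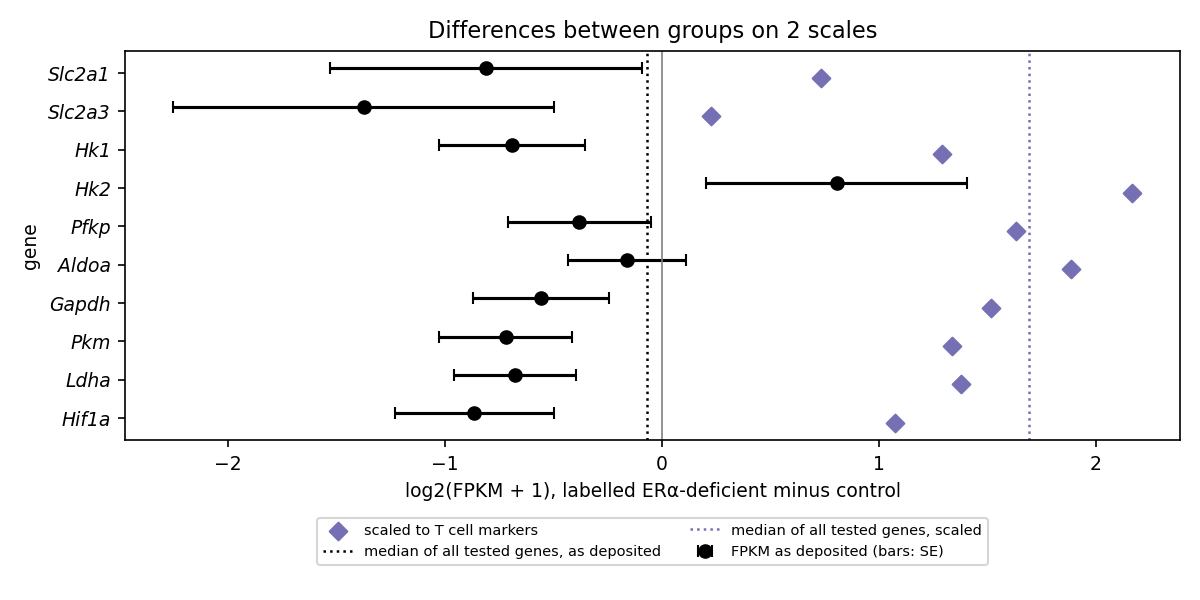
Log2 fold change of each of the 10 genes on FPKM as deposited (black, bars for SE) and after each library was scaled to its summed T cell markers (purple diamonds), with the medians of all tested genes dotted. 9 of the 10 black points lie below 0, and each diamond lies above 0, from 0.23 for Slc2a3 to 2.17 for Hk2.

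Other cells differed between the libraries as well, including between the controls. Of the 15 macrophage and monocyte markers, 15 lay higher in both ERα-deficient-labelled libraries than in either control, where 23.2% of all tested genes did. Their median log2 fold change was 3.67, and Fcgr1 and Cd14 were listed at 0 in control 1. In limma 0 were called, where 0.0155% of all tested genes were called higher. All 15 had an unadjusted p under 0.05 in limma, where 15.9% of all tested genes did. Lyz2 and Hmox1, the highest of them, had 50.7 and 162 against 548 and 1304 FPKM, and 7.94 and 41.6 against 399 and 453 FPKM. The 11 neutrophil markers summed to 2079 and 4327 FPKM in controls against 5746 and 7725 FPKM in the other group, and the 11 erythroid markers to 218.1 and 8221 against 6526 and 5119 FPKM. The 10 dendritic cell markers summed to 123.6 and 1011 against 3500 and 3398 FPKM, the 6 NK markers to 32.2 and 43.4 against 48.4 and 80.4, the 4 B cell markers in the table to 51.7 and 77.1 against 205.6 and 81.7, and the 4 platelet markers to 8.29 and 4.22 against 13.6 and 7.41. In control 1, Ly6g of the neutrophil list, 4 of the dendritic markers and 2 of the erythroid markers were listed at 0, and in the other 3 libraries none of these lists had a marker at 0. Control 2, which carried more of the myeloid and erythroid transcripts than control 1, also had the higher value of 8 of the 10 glycolytic genes, Slc2a1 and Hk1 being the exceptions. The part of these cells in the values of the 10 genes was not tested.

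**Figure D5:**
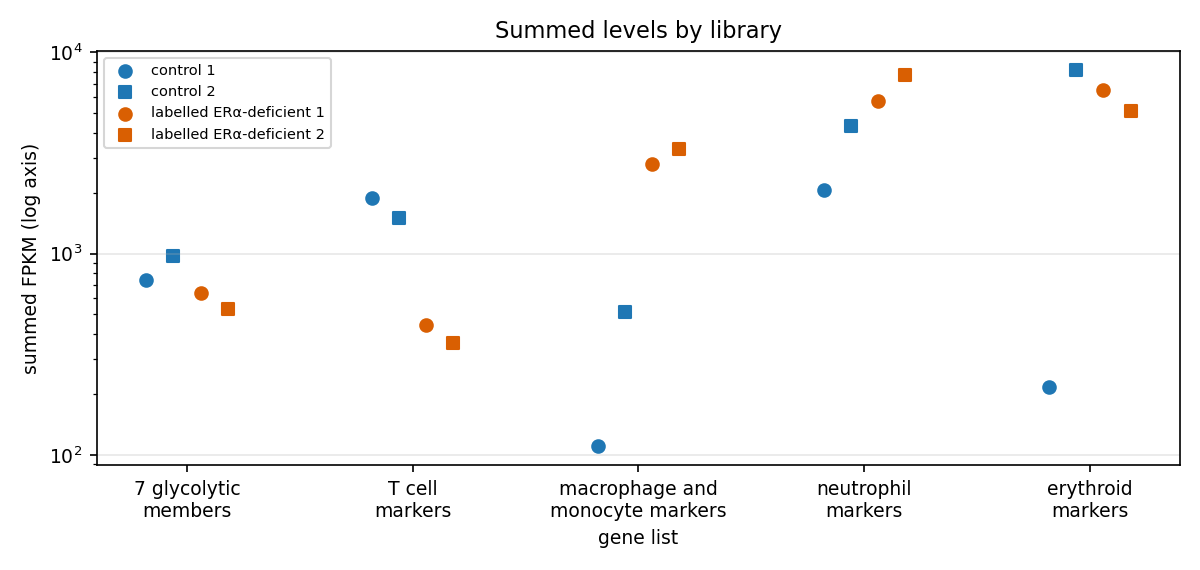
Summed FPKM per library, on a log axis, of the 7 glycolytic enzymes and of 4 lists of cell type markers, with 1 point per library (blue for controls, orange for the ERα-deficient-labelled libraries). The enzyme sums span 532 to 976 FPKM, while the macrophage and monocyte sums span 110.2 to 3307 FPKM.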

How the data were processed

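RNA-seq libraries from sorted CD4 T cells (2 control, 2 labelled ERα-deficient) were deposited by the authors as one table of FPKM per gene, 1 column per library. HISAT, Bowtie2, RSEM and the build mm10 are named per the submitters' processing notes, and versions, settings and strand use are not given in the sources used here. RSEM shares fragments between similar transcripts by estimate. Of 16230 genes, 16183 matched the GRCm38.p6 annotation by NCBI identifier, and 23 symbols that had become dates were restored from it. Positions are from that assembly, which carries mm10 coordinates.

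The 12896 genes with a mean of at least 1 FPKM entered a two-sided limma test (version 3.58.1, R 4.3.3) of group alone on log2(FPKM + 1), with a mean-variance trend and Benjamini-Hochberg adjustment over these genes, and calls were made at an adjusted p under 0.05. All 10 genes passed the filter. A fold change on log2(FPKM + 1) understates the change of low genes. Fragments were estimated from the steps between low FPKM of 10348 genes with 1 transcript of over 800 bases. Of values between 0.5 and 4.5 fragments, 81.2% to 83.0% lay within 0.2 of a whole number. The library size was chosen for a high share of this kind, and the median share over the sizes tried was 33.3% to 37.3%. Lengths came from GENCODE M21. Poisson intervals at 95% and the worth of 3 fragments cover counting error only. Shared sequence was searched with blastn 2.17.0. The procedure was also run on simulated counts with equal depth, a fixed spread and no shift between cell types. These settings differ from the data, so that run does not bear on the results for the 10 genes.

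Named genes were the 10, Esr1, 3 per pathway list by smallest p, the 3 nearest Hif1a and the 2 most abundant per marker list. Of these markers, those of macrophages and T cells are printed, with Eomes of NK cells and Cd22 of B cells. Genes that share sequence or exons with the 10, and markers listed at 0, were named after their values were seen, as were those said to be so in the text. The genes and lists were chosen with earlier results of these data known. Alternatives covered the pseudocount, filter, variance model, scaling, replicate block, leaving out each library, and, added after the data were seen, voom weights on estimated fragments and a median without the 3 lowest genes.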

Additional observations from a re-analysis of the deposited data

How the results depend on the processing

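Outside the scaling to T cell markers, 131 fold changes of the 10 genes under 14 alternatives gave 0 calls in limma (lowest adjusted p 0.287, Hif1a at a mean of at least 5 FPKM) and 1 change of direction, Slc2a1 at 0.051 without ERα-deficient-labelled library 1 (-1.68 without library 2). Filter, variance model and replicate block leave each fold change as it is, so those settings could not turn a direction. Scaling to T cell markers gave 7 genes called higher, 8 higher and 0 lower without overlap, and a median of 1.36. It turned Slc2a1 (0.73), Slc2a3 (0.23), Hk1 (1.29), Pfkp (1.63), Aldoa (1.89), Gapdh (1.52), Pkm (1.34), Ldha (1.38) and Hif1a (1.07), by dividing each library by 1 factor. A filter of 5 FPKM removed Hk2 and Slc2a1 and so left 0 genes higher without overlap. Leaving out single libraries, the median ran from -0.70 to -0.49, Slc2a3 minus Slc2a1 from -1.15 to 0.025 (the highest without control 2) and Hk2 minus Hk1 from 0.79 (without control 1) to 2.20. Then 7 to 9 genes were lower without overlap (36.4% to 43.4% of all tested genes) and 1 higher, and 0 were called; the lone library is assumed to vary like the other group. Under median-ratio scaling 5 were lower without overlap (23.8% of all tested genes), since Gapdh and Pfkp overlapped.

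Over all genes, limma called 7, against 4 at a pseudocount of 5 or a filter of 5 FPKM and 0 at a pseudocount of 0.1, with no filter, with no trend, with the replicate block and without any 1 library, and 7203 when scaled to T cell markers. The replicate block, which cannot move a fold change in this balanced design, left the median of the 10 genes at -0.68, with 0 calls among them. Equal replicate numbers did not deviate together (r = -0.0016 over genes), and nothing ties them to a shared mouse or day. With voom weights on estimated fragments, chosen after seeing the data, 160 of 7252 tested genes were called higher and 54 lower, and Slc2a1, Slc2a3 and Hk2 had adjusted p of 0.615, 0.345 and 0.414. Depth limits the 3 lowest genes, which rest on 1 to 26 fragments per library.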
